A study of Mus musculus with 10 samples.

Results

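The genes described are 6 aquaporins and the V2 vasopressin receptor: *Aqp2*, *Aqp5*, *Aqp3*, *Aqp4*, *Aqp1*, *Aqp11* and *Avpr2*. They were picked by symbol as the water channels and the receptor studied in the principal cell, the salt and water handling cell of the collecting duct (CD). These are 7 of the 39273 genes in the deposited table, each with a single row, and all 7 were among the 24410 genes tested.

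In the principal cell, vasopressin binds AVPR2 on the basolateral face and raises cAMP. Protein kinase A then phosphorylates AQP2, and vesicles carrying it fuse with the apical membrane, so that water can enter from the urine. Water leaves across the basolateral membrane through AQP3 and AQP4. AQP1 is best known from the proximal tubule, the thin descending limb and the endothelium of the vasa recta, AQP5 from the apical membrane of glands and lung, and AQP11 from the endoplasmic reticulum.

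RNA-seq was made from 5 groups of 2 libraries. The groups UB D5, UB D10 and UB D20 were ureteric bud (UB) organoids, grown from the UB of E11.5 *Wnt11*-RFP reporter embryos of a C57BL/6 and Swiss Webster cross for 5, 10 or 20 days in expansion medium. CD organoids were day 10 UB organoids moved for a week to a differentiation medium that holds aldosterone and vasopressin, together with FGF9 and inhibitors of ROCK, Notch cleavage and MEK. That medium was chosen by the study in a screen that read *Aqp2* and an intercalated cell gene by qRT-PCR, so a high *Aqp2* level in these organoids is not an independent choice of marker. Adult mCD was sorted *Hoxb7*-Venus+ cells of mice aged 2 months. The sample labels of these 2 libraries call them organoids and repeat the embryonic age and genotype, and the study's design and methods were followed instead. *Hoxb7*-Venus marks the whole duct tree, so neither the sort nor the organoids isolated principal cells. No source says whether the 2 libraries of a group came from separate cultures or animals, so the p-values measure the spread between these libraries, which may be technical.

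Total gene counts ran from 11913613 to 24536676 per library, lowest in CD organoids and highest in UB D5 and UB D10. The sample numbers of UB D5 and UB D10 form a separate run from those of UB D20, CD organoids and adult mCD. An effect of such a split on the comparisons that cross it was not tested. Levels are given as CPM, counts relative to the TMM-scaled size of the library, and the level worth 3 counts, between 0.109 and 0.241 CPM, was taken as the limit of detection of a library. It covers counting error only. The marker lists of the duct lineage (3 of 3 genes) and of principal cells other than water channels (4 of 4) were above that limit in every group. The 5 intercalated cell markers summed to at most 4.89 CPM in UB organoids, to 1185 to 1274 CPM in CD organoids and to 1857 to 1894 CPM in adult mCD. Singly they went different ways, with *Foxi1* averaging 490 CPM in CD organoids and 169 CPM in adult mCD. In that order of groups, means were 273 and 265 CPM for *Atp6v0d2* and 415 and 606 for *Atp6v1b1*. They were 50.1 and 298 CPM for *Slc26a4* and 2.51 and 538 for *Slc4a1*. Adult mCD also held RNA of other cells, with all 8 proximal tubule markers detected and summing to 3807 to 4582 CPM against 6.34 to 34.0 CPM in every organoid library. The 2 thick ascending limb markers summed there to 3274 to 3466 CPM and the 7 endothelial markers to 772 to 790 CPM, whereas organoid libraries had at most 5.13 and 17.1 CPM. The 2 distal convoluted tubule markers came to 444 to 492 CPM in adult mCD, against at most 1.44 CPM in organoids. The 4 stromal markers summed to 63.3 and 119 CPM in CD organoids and to 73.0 and 78.4 CPM in adult mCD, against at most 17.9 CPM in UB organoids, and the UB tip genes *Wnt11* and *Ret* to 16.4 and 17.6 CPM in CD organoids, against 986 to 2119 CPM in UB organoids.

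*Aqp2* lies at 15:99579055-99584547 (GRCm38, plus strand), followed on the same strand by *Aqp5* after 6234 bases and then by *Aqp6* after another 6570. *Aqp3* lies at 4:41092722-41098183 on the minus strand. Since *Aqp2* and *Aqp3* carry the apical and the basolateral step, the 250 bases before the start of each are shown from RefSeq (GRCm38.p6), at chr15:99578806-99579055 on the plus strand and chr4:41098184-41098433 on the minus strand, 5′ to 3′. Capitals mark 3 motifs, searched on either strand. The half-site of the cAMP response element was spelled TGACG. The letters of the GATA motif searched were AGATAA. For the motif bound by ETS factors the letters searched were AGGAAG.
Aqp2: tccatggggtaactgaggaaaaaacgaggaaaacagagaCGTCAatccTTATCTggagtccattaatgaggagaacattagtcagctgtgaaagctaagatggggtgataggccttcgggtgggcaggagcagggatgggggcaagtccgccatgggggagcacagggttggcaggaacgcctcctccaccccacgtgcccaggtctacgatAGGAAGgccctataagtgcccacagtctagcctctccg
Aqp3: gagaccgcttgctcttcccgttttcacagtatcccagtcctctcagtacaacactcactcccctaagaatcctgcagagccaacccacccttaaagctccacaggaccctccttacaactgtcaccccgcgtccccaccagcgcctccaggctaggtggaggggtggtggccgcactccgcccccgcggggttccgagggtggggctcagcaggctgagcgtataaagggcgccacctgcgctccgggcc

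The *Aqp2* window held 1 match to each of the 3 motifs, at 211 (cAMP response element half-site), 202 (GATA) and 38 (ETS) bases before the start, and the *Aqp3* window held none. Of 32851 RefSeq promoter windows of this length, 17.8% held the half-site, 9.99% the GATA motif and 29.5% the ETS motif, so none of the 3 is rare. *Aqp5*, *Aqp11* and *Avpr2* had no match, and *Aqp1* (6:55336432-55348555, plus strand) had 1 match to the ETS motif. *Aqp4* had no window in the promoter set and was not searched. The 3 motifs do not overlap one another in these windows, and a match in letters is not evidence of a bound site.

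In 6 comparisons a gene was called changed at an edgeR quasi-likelihood adjusted p of at most 0.01 and over 4-fold. From UB D5 to UB D10, *Aqp5* alone of the 7 genes rose and none fell, beside 2.34% and 1.07% of all genes tested. From UB D10 to UB D20, *Aqp2* rose and *Aqp5* fell, beside 1.66% and 1.73%. Against their UB D10 start, CD organoids had 4 genes higher, *Aqp2*, *Aqp5*, *Aqp3* and *Aqp4*, and none lower, where 4.96% and 5.71% of all genes were called. The same 4 were higher than in UB D20, where the background was 4.74% higher and 4.73% lower. CD organoids were lower than adult mCD for 5 of the 7 and higher for *Aqp5*, against 9.84% and 4.50% of all genes. Adult mCD exceeded UB D20 for *Aqp2*, *Aqp3*, *Aqp4* and *Aqp1* and was lower for none, against 12.3% and 6.89%. These comparisons share libraries and are not independent of each other. *Avpr2* was not called in any of the 6.

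**Figure D1:**
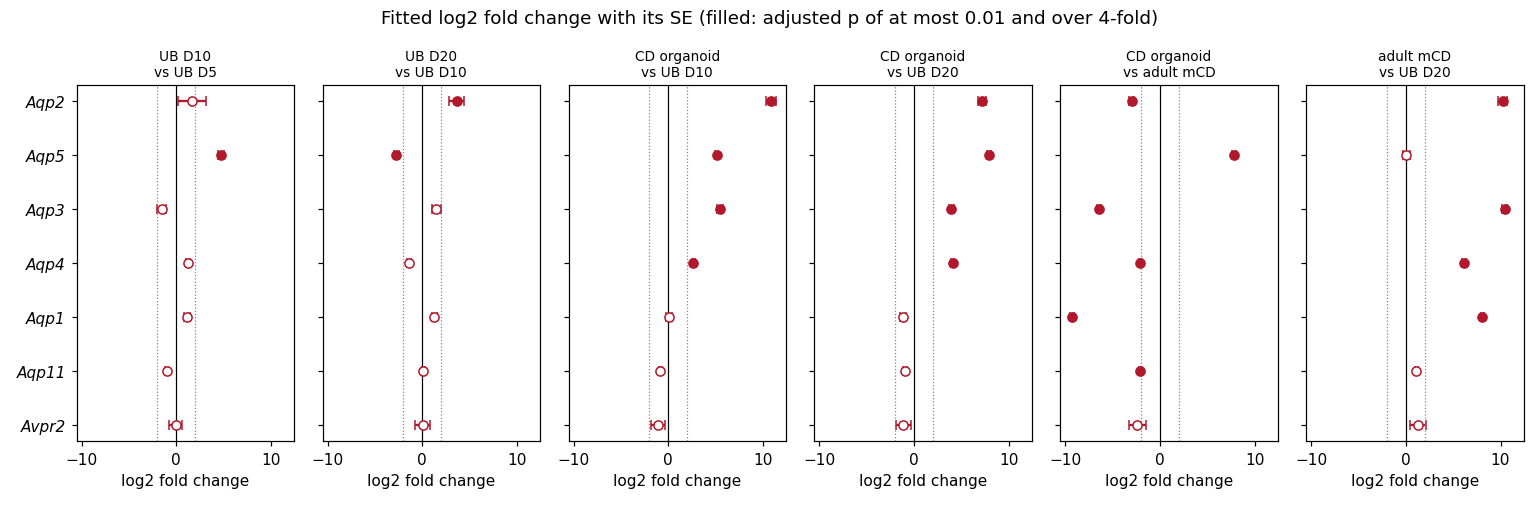
Fitted log2 fold change of the 7 genes (x axis) in 6 comparisons, with bars of 1 SE, first-named group over second. Filled points passed an adjusted p of 0.01 and the 4-fold limit (dotted lines at -2 and 2), and *Aqp5* is the single gene of the 7 with more RNA in CD organoids than in adult mCD past the threshold, at 7.83.

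*Aqp2*, the vasopressin-regulated apical channel, went from 0.238 and 0.255 CPM in UB D10 to 632 and 485 CPM in CD organoids, and stayed below the adult cells. The counts were 1 and 1 in UB D5, 6 and 7 in UB D10, 12 and 104 in UB D20, 8879 and 6051 in CD organoids and 60259 and 55654 in adult mCD. In adult mCD this was 4542 and 4374 CPM, and UB D5 was the one group with both libraries under the limit of detection. No 2 groups overlapped, but the UB D20 libraries, at 0.728 and 6.87 CPM, lay farther from each other than replicate 1 lay from UB D10.

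The CD organoid mean was 559 ± 104 CPM (SD, n = 2), which is a fitted log2 fold change of 10.86 ± 0.53 (SE, edgeR adjusted p = 1.3e-09) over UB D10. Against adult mCD, at 4458 ± 119 CPM, the change was -3.00 ± 0.30 (edgeR adjusted p = 1.6e-06), or 12.5% of the adult mean. Of other principal cell markers, *Scnn1b*, *Scnn1g*, *Hsd11b2* and *Fxyd4* summed to 683 to 689 CPM in CD organoids and 4660 to 4818 CPM in adult mCD. Singly they differed, with means in that order of groups of 326 and 857 CPM for *Scnn1b* and 198 and 544 for *Fxyd4*. For *Scnn1g* they were 124 and 734 CPM, and for *Hsd11b2* 38.7 and 2603. In bulk libraries fewer principal cells and less *Aqp2* RNA per cell cannot be told apart. UB D5 had 1 count in each library, so the ratio of UB D10 to it, 5.92, has a 95% exact counting interval of 1.34 to 54.0.

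The rise of *Aqp2* from UB D10 to UB D20, 3.64 ± 0.79 on the log2 scale (edgeR adjusted p = 0.0035), rested on replicate 2 of UB D20. Without it the change was 1.38 (edgeR adjusted p = 0.072). The same library held more *Aqp3* than replicate 1, 33 against 9 counts, and more *Kcnj1*, 30 against 8, while *Aqp4* was alike in both at 134 and 144 counts. *Kcnj1* encodes the ROMK potassium channel of principal and thick ascending limb cells. Some markers of other tubule segments were higher in that library too: *Umod* and *Slc12a1* of the thick ascending limb had 29 and 22 counts against 5 and 2, a summed 3.37 against 0.425 CPM, and *Slc34a1* of the proximal tubule had 24 against 13. *Lrp2*, the proximal tubule marker with the most counts, went the other way, with 429 against 541. *Umod* and *Slc34a1* were called higher in UB D20 than in UB D10 (edgeR adjusted p = 0.0070 and 0.00098), as 1 of the 2 thick ascending limb and 1 of the 8 proximal tubule markers. Of all genes tested, 1.66% were called higher in that comparison. The 8 proximal tubule markers summed to 32.0 and 34.0 CPM in UB D20 against 9.79 and 16.9 CPM in UB D10. Most of the sum in both groups was *Lrp2*, which rose by 1.23 ± 0.18 on the log2 scale, under the 4-fold limit. The list median was 1.27. The part of those segments in the *Aqp2* level was not tested. UB D10 and UB D20 also lie in different runs of sample numbers, and an effect of that was not tested either.

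**Figure D2:**
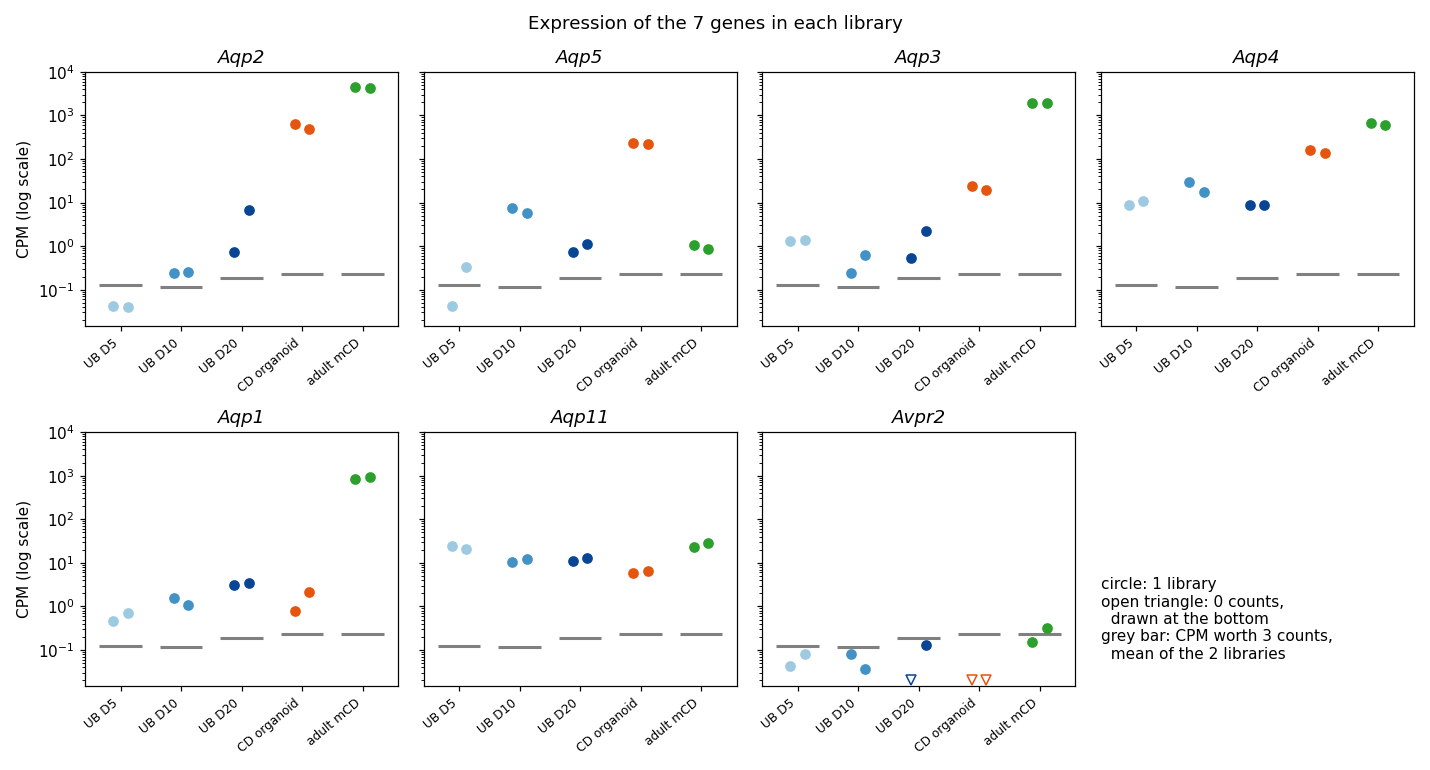
CPM on a log axis (y) of each gene in the 10 libraries by group (x), 1 circle a library, with 0 counts drawn as open triangles at the bottom and a grey bar at the CPM worth 3 counts. *Aqp2* climbs to 4374 and 4542 CPM in adult mCD, *Aqp5* peaks in CD organoids at 227 and 236 CPM, and *Avpr2* never passes 0.314 CPM.

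*Aqp5*, the apical channel of salivary and lacrimal glands, was the one gene of the 7 whose highest level was in CD organoids. Its counts were 1 and 8 in UB D5, 185 and 158 in UB D10, 12 and 17 in UB D20, 3319 and 2829 in CD organoids and 14 and 11 in adult mCD. The CD organoid libraries, at 236 and 227 CPM, stood far above every other library, the next being UB D10 at 7.33 and 5.76 CPM. Adult mCD at 0.960 ± 0.135 CPM and UB D20 at 0.926 ± 0.280 CPM (SD, n = 2) overlapped.

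The log2 fold change of *Aqp5* in CD organoids was 5.14 ± 0.15 over UB D10 (edgeR adjusted p = 1.5e-11) and 7.83 ± 0.21 over adult mCD (edgeR adjusted p = 6.0e-12), 241-fold in means. Within UB organoids it went up by 4.77 ± 0.30 from UB D5 to UB D10 (edgeR adjusted p = 2.1e-07) and came back by -2.76 ± 0.26 to UB D20 (edgeR adjusted p = 5.0e-06). *Aqp5* sits between *Aqp2* and *Aqp6* on chromosome 15, and both neighbours were lower in CD organoids than in adult cells. *Aqp6*, an anion-conducting channel of intercalated cell vesicles, had 8669 and 8096 counts in adult mCD and 46 and 64 in CD organoids, -7.26 ± 0.24 on the log2 scale (edgeR adjusted p = 3.2e-11).

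Of the basolateral channels, *Aqp3*, which also passes glycerol, rose in CD organoids but by far less than it differed from adult cells. It had 31 and 34 counts in UB D5, 6 and 17 in UB D10, 9 and 33 in UB D20, 331 and 237 in CD organoids and 25847 and 24063 in adult mCD. CD organoids and adult mCD each stood clear of all UB libraries, and UB D20 overlapped both other UB groups in CPM. The means were 21.3 ± 3.22 CPM in CD organoids and 1920 ± 40.4 CPM in adult mCD (SD, n = 2), so that CD organoids had 1.11% of the adult level.

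The log2 fold change of *Aqp3* was 5.45 ± 0.31 over UB D10 (edgeR adjusted p = 6.0e-09) and -6.49 ± 0.20 against adult mCD (edgeR adjusted p = 1.9e-11). Between UB stages it was not called, at -1.52 ± 0.46 from UB D5 to UB D10 (edgeR adjusted p = 0.021) and 1.50 ± 0.50 from there to UB D20 (edgeR adjusted p = 0.040). Without replicate 2 of UB D10 these became -2.27 and 2.26 and both passed, and without replicate 1 of UB D20 the second was 2.21 and passed, whereas without replicate 2 of UB D20 it was 0.29 and did not.

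*Aqp4*, the other basolateral channel (ENSMUSG00000024411, chromosome 18), had more counts than *Aqp3* in every UB library, though *Aqp3* too was above the limit of detection throughout. The *Aqp4* counts were 207 and 263 in UB D5, 729 and 490 in UB D10, 144 and 134 in UB D20, 2208 and 1747 in CD organoids and 8984 and 7519 in adult mCD. All 10 libraries were far above the limit of detection, with UB D10 the highest of the UB groups and UB D5 and UB D20 overlapping. CD organoids were at 149 ± 12.1 CPM and adult mCD at 634 ± 61.0 CPM (SD, n = 2), 23.4% of the adult mean.

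Over UB D10 *Aqp4* rose by 2.67 ± 0.17 on the log2 scale (edgeR adjusted p = 1.5e-08), and it was higher than in UB D20 by 4.07 ± 0.19 (edgeR adjusted p = 1.4e-09). Against adult mCD its change was -2.09 ± 0.16 (edgeR adjusted p = 8.6e-08), just past the 4-fold limit. Scaling by library totals made that -1.70, quantile normalization -1.78 and leaving out replicate 1 of adult mCD -1.96, each under 4-fold with adjusted p of at most 8.9e-06. Its moves of 1.25 ± 0.18 from UB D5 to UB D10 and -1.40 ± 0.20 from UB D10 to UB D20 (edgeR adjusted p = 0.00017 and 0.00015) were under 4-fold too.

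To set the channels against each other, levels were compared per length. The deposited RPKM divides by the exon lengths of all transcripts of a gene added together, which is 3.45 times the merged exon length of *Aqp4*, 2.93 times that of *Aqp5* and 1.19 times that of *Aqp3*, but 1.00 times that of *Aqp2* and *Aqp1*. Shares are therefore given on CPM per kilobase of merged exons. On that scale *Aqp2* made up 77.4% and 73.8% of the 6 aquaporins in the CD organoid libraries and 68.0% and 67.4% in adult mCD. What accompanied it differed. In CD organoids the next was *Aqp5*, at 15.8% and 18.8%, then *Aqp4*, at 4.38% and 4.85%, and *Aqp3*, at 2.24% in both. In adult mCD it was *Aqp3*, at 22.6% in both, then *Aqp1* at 6.95% and 7.88%, with *Aqp4* at 2.31% and 2.07% and *Aqp5* at 0.0086% and 0.0073%.

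UB organoids had a different make-up, at totals of 4.89 to 10.6 CPM per kilobase for the 6 channels together, against 464 and 575 in CD organoids and 4575 and 4704 in adult mCD. *Aqp11* was the leading one in UB D5, with 52.7% and 43.8%, and *Aqp4* in UB D10, with 49.0% and 39.2%. The UB D20 libraries did not match each other, *Aqp2* having 10.5% in replicate 1 and 45.8% in replicate 2.

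**Figure D3:**
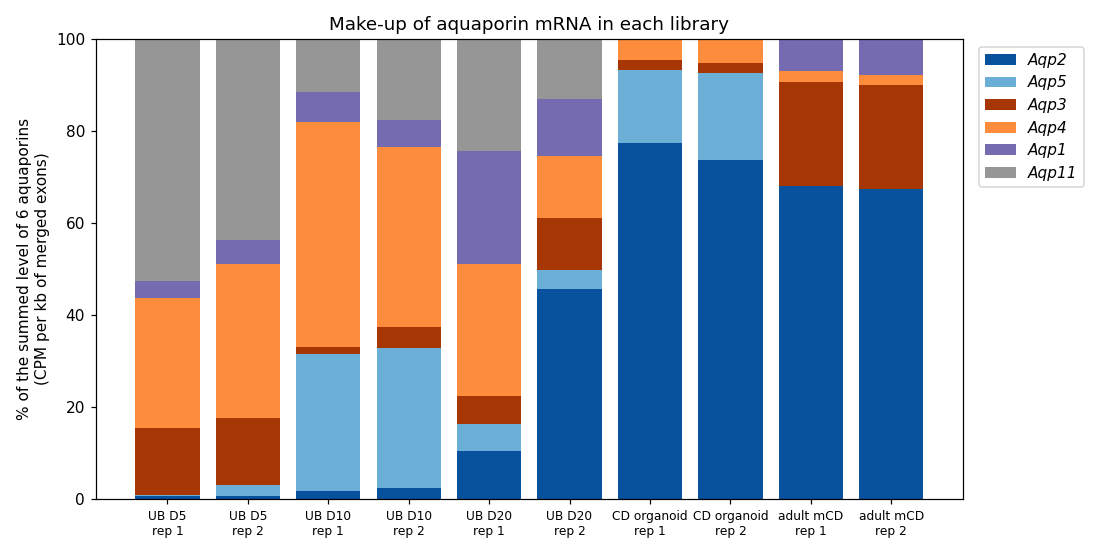
Share of each of the 6 aquaporins (y axis, % of their summed CPM per kilobase of merged exons) in the 10 libraries (x axis). *Aqp2* takes 67.4% to 77.4% in CD organoids and adult mCD, with *Aqp5* second in the former and *Aqp3* second in the latter.

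The apical to basolateral ratio, *Aqp2* over the sum of *Aqp3* and *Aqp4* in deposited RPKM, was higher in CD organoids than in any other group. It was 24.5 and 22.4 in CD organoids, 3.44 and 3.43 in adult mCD, 0.778 and 3.41 in UB D20 and 0.115 and 0.161 in UB D10. On the log2 scale CD organoids averaged 4.55 ± 0.093 and adult mCD 1.78 ± 0.0046 (SD, n = 2), a difference of 2.77. That difference was larger than the spread of either group, and the exact two-sided permutation p was 0.333, the smallest that 2 libraries against 2 can give. UB D20 averaged 0.70 ± 1.51, which is 3.84 below CD organoids (exact permutation p = 0.333), and its libraries lay far apart.

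The size of the gap to adult mCD depended on the length used. With merged exons, an alternative chosen after seeing the data, the ratio was 11.7 and 10.4 in CD organoids and 2.73 in both adult libraries, a log2 difference of 2.01. With scaled counts not divided by length the difference was 0.90, and with *Aqp3* alone as the basolateral channel 3.49. The direction was the same under each. *Aqp4* and *Aqp3* also stood in a different proportion: per kilobase of merged exons, *Aqp4* was 1.96 and 2.16 times *Aqp3* in CD organoids, and 0.102 and 0.0917 times in adult mCD. In UB D5 the ratio of *Aqp2* to the basolateral sum rests on 1 *Aqp2* count a library and is not compared.

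**Figure D4:**
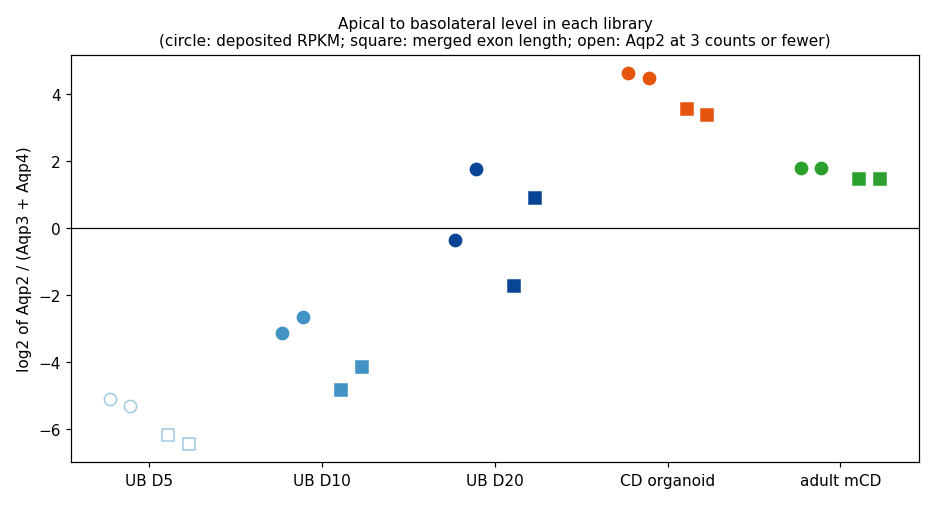
Log2 of *Aqp2* over *Aqp3* plus *Aqp4* (y axis) in each library by group (x axis), from deposited RPKM (circles) and per merged exon length (squares), with open marks where *Aqp2* had 3 counts or fewer. CD organoids lie at 4.48 and 4.61 by RPKM and at 3.38 and 3.55 by merged exons, above all other libraries on either scale.

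*Aqp1*, the constitutive channel of proximal tubule and thin limb, was abundant in adult mCD and close to absent from organoids. Its counts were 11 and 17 in UB D5, 40 and 30 in UB D10, 52 and 52 in UB D20, 11 and 26 in CD organoids and 11390 and 12058 in adult mCD. Adult mCD stood apart from the other groups, while CD organoids, at 1.43 ± 0.921 CPM (SD, n = 2), overlapped UB D10, at 1.34 ± 0.348 CPM. The gap of CD organoids to adult mCD was a log2 fold change of -9.28 ± 0.20 (edgeR adjusted p = 1.4e-12). All 8 proximal tubule and all 7 endothelial markers were likewise called higher in adult mCD than in CD organoids, which gave median log2 fold changes of -9.36 and -7.89, and their part in the *Aqp1* level was not tested. Of all genes tested, 9.84% were called in that direction.

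Between CD organoids and UB D10, *Aqp1* differed by 0.07 ± 0.33 on the log2 scale (edgeR adjusted p = 0.89), with a sign that turned to -0.02 with library totals and -0.04 with quantile normalization. Against UB D20 its log2 fold change was -1.20 ± 0.31 (edgeR adjusted p = 0.0055), which without replicate 2 of CD organoids became -2.01 and passed the 4-fold limit.

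*Aqp11*, an intracellular channel whose loss in mice leads to cystic kidneys, was the only aquaporin of the 6 with its lowest mean in CD organoids. It had 581 and 521 counts in UB D5, 261 and 335 in UB D10, 185 and 198 in UB D20, 84 and 82 in CD organoids and 312 and 372 in adult mCD. In CPM these were 24.8 and 21.3, 10.3 and 12.2, 11.2 and 13.1, 5.98 and 6.58, and 23.5 and 29.2. The CD organoid libraries were below all others, adult mCD overlapped UB D5, and UB D10 overlapped UB D20.

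The change of *Aqp11* in CD organoids was -0.84 ± 0.17 on the log2 scale against UB D10 (edgeR adjusted p = 0.00085), under the 4-fold limit. Against adult mCD it was -2.06 ± 0.17 (edgeR adjusted p = 1.9e-07), only just past it. It was -1.67 with library totals, -1.78 with quantile normalization, -1.99 without replicate 1 of CD organoids and -1.92 without replicate 2 of adult mCD. Proximal tubule cells express *Aqp11* as well, and the part of their RNA in adult mCD was not tested.

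*Avpr2*, the V2 receptor that starts the response in principal cells, had no more than 3 counts in 9 of the 10 libraries. Its counts were 1 and 2 in UB D5, 2 and 1 in UB D10, 0 and 2 in UB D20, 0 and 0 in CD organoids and 2 and 4 in adult mCD. The 0 counts in CD organoids allow up to 0.214 and 0.241 CPM, a range that overlaps adult mCD at 0.151 and 0.314 CPM. A difference between CD organoids and adult mCD was therefore not detectable at this depth, and the fitted value of -2.40 ± 0.93 (edgeR adjusted p = 0.048) depends on the prior count, being -0.89 with a prior count of 5.

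*Avpr2* (X:73892102-73895502, plus strand) shares 2347 bases, 81.3% of its merged exon bases, with exons of *Arhgap4*, a gene on the opposite strand. The study's methods name a stranded library kit and the labels another kit, TruSeq, with no word on strand. The strand setting of the counting is not given in the sources used here, and if it ignored strand the reads of the 2 genes there cannot be told apart. *Arhgap4* had 159 and 135 counts in adult mCD, 40 and 27 in CD organoids and 12 to 89 in UB libraries. The low *Avpr2* counts in adult mCD stood beside 60259 and 55654 counts of *Aqp2*, so the *Avpr2* row gives no usable level even where *Aqp2* is abundant.

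Of the 4 other genes of the vasopressin and oxytocin family, *Avpr1a*, the V1a receptor, was the one with more than 11 counts in any library. It had 0 counts in both UB D5 libraries, 2 and 3 in UB D10, 0 and 3 in UB D20, 548 and 441 in CD organoids and 676 and 694 in adult mCD. CD organoids and adult mCD were both far above all UB libraries. The ratio of CD organoids to UB D10 was 393, with a 95% exact counting interval of 168 to 1212, and the comparison was called (edgeR adjusted p = 1.8e-10). Against adult mCD the log2 fold change of *Avpr1a* was -0.50 ± 0.15 (edgeR adjusted p = 0.014) and was not called. *Avp*, the hormone, had 1 count over all 10 libraries, *Avpr1b* had 2, and *Oxtr* had 0 to 11 counts a library.

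Among the 6 other aquaporins, 4 were tested, and against UB D10, 1 was called up and 1 down in CD organoids. *Aqp6* was the higher one, at a log2 fold change of 2.84 ± 0.43 (edgeR adjusted p = 7.9e-05). *Aqp7*, an aquaglyceroporin, was the lower one on 0 and 1 counts in CD organoids against 12 and 10, a ratio of 11.1 with a 95% exact counting interval of 1.79 to 457. Both had more counts in adult mCD and were called there, where *Aqp7* had 74 and 82 counts. *Aqp8* and *Aqp12* were not tested for lack of counts, *Aqp12* having 0 in every library.

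The lists between receptor and channel are read against the share of all genes called, 4.96% higher and 5.71% lower in CD organoids against UB D10. Against adult mCD that share was 4.50% higher and 9.84% lower in CD organoids. Of 13 genes of cAMP signalling and protein kinase A, 2 passed as higher and 1 as lower in CD organoids against UB D10, with a list median of 0.31 on the log2 scale, against a median of -0.15 over all genes tested. *Pde3b*, a phosphodiesterase, rose by 2.57 ± 0.096 (edgeR adjusted p = 1.2e-10) and *Crem*, a cAMP-responsive transcription factor, by 2.51 ± 0.099 (edgeR adjusted p = 1.8e-10), while *Adcy3*, an adenylyl cyclase, changed by -3.00 ± 0.17 (edgeR adjusted p = 6.0e-09). *Adcy6*, the main cyclase of the vasopressin response, was at 0.09 ± 0.067 (edgeR adjusted p = 0.30) and *Gnas*, the stimulatory G protein, at -0.10 ± 0.091 (edgeR adjusted p = 0.38).

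Against adult mCD 1 of the 13 was higher and 1 lower, with a median of -0.20 against 0 over all genes. The lower one was *Pde4b*, a cAMP phosphodiesterase, at 26.9 CPM on average in CD organoids and 516 CPM in adult mCD, or -4.26 ± 0.12 on the log2 scale (edgeR adjusted p = 1.1e-11). *Prkar2b*, a regulatory subunit of protein kinase A, was the higher one, at 48.3 against 6.95 CPM.

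Of 24 genes of AQP2 trafficking and turnover, 2 passed as higher against UB D10 and none as lower, near the share of all genes, with a median of 0.44. They were *Nedd4l*, a ubiquitin ligase, at 2.08 ± 0.087 (edgeR adjusted p = 3.0e-10), and *Mal*, an apical raft protein that binds AQP2, at 2.04 ± 0.086 (edgeR adjusted p = 3.5e-10). *Mal* was also the 1 gene of the list called against adult mCD, at 298 against 1398 CPM on average, a log2 fold change of -2.23 ± 0.085. The other 23 were not called there, and the list median was -0.31.

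Among 9 transcription factors studied at the *Aqp2* gene, 1 passed as higher in CD organoids against UB D10, with a list median of 0.39. This was *Tfcp2l1*, a CP2-family factor of collecting duct cells, at 2456 CPM on average against 236, a log2 fold change of 3.38 ± 0.18 (edgeR adjusted p = 2.9e-09). The ETS factors *Elf3* and *Elf5* changed by 1.79 ± 0.20 and 1.50 ± 0.13, under the 4-fold limit. Against adult mCD the list median was 0.74, and *Gata2*, a zinc finger factor, was the 1 gene called, at 26.6 against 275 CPM and -3.37 ± 0.082 on the log2 scale (edgeR adjusted p = 3.2e-12). *Elf3* differed from adult mCD by -0.02 ± 0.20 (edgeR adjusted p = 0.99).

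Of 6 genes of urea and osmolyte transport, 2 were higher in CD organoids than in UB D10, with a median of 0.46. *Slc14a2*, the vasopressin-regulated urea transporter, had 2012 and 1627 counts in CD organoids, 66 and 116 in UB D10 and 2330 and 1418 in adult mCD. It rose by 5.29 ± 0.24 over UB D10 (edgeR adjusted p = 7.1e-10) and differed from adult mCD by -0.07 ± 0.18 (edgeR adjusted p = 0.80), with the adult libraries on both sides of the CD organoid ones in CPM. *Hspa1b*, a heat shock gene of the osmotic response whose reads a near-identical copy, *Hspa1a*, could share, was higher than in UB D10 by 2.18 ± 0.31 and lower than in adult mCD, by -3.36 ± 0.31, and *Slc6a12*, the betaine transporter, was the other gene called lower than in adult mCD, at -3.64 ± 0.52. The list median against adult mCD was -0.996.

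Of 8 other principal cell genes, 6 rose past the threshold from UB D10 to CD organoids, with a median log2 fold change of 4.10. Against adult mCD 5 of the 8 were lower, beside 9.84% of all genes, and the median was -2.55. *Scnn1a*, the alpha subunit of the epithelial sodium channel, rose by 6.33 ± 0.19 (edgeR adjusted p = 1.9e-11) and *Fxyd4*, a regulator of the sodium pump, by 5.59 ± 0.12 (edgeR adjusted p = 1.7e-12). *Kcnj1* had 10 and 27 counts in CD organoids and 0 in both UB D10 libraries, at least 12.6-fold higher than the level worth 3 counts a library. In the same comparison both thick ascending limb markers were called higher, *Umod* with 9 and 30 counts against 0 and 0 and *Slc12a1* with 8 and 34 against 6 and 2. So were 2 of the 8 proximal tubule markers, *Slc34a1* with 9 and 29 counts against 0 and 1 and *Slc22a6* with 1 and 9 against 0 and 0. As for *Kcnj1*, each of these was higher in replicate 2 of CD organoids than in replicate 1. The summed level of the thick ascending limb list was 1.21 to 5.13 CPM against 0.0729 to 0.238. That of the proximal tubule list was 6.34 to 10.9 CPM against 9.79 to 16.9. In UB D10 nearly all of the proximal tubule sum was *Lrp2*, which changed by -1.35 ± 0.24 on the log2 scale. The other proximal tubule markers all had higher means in CD organoids than in UB D10, on low counts, and the list median was 1.95. *Kcnj1* fell short of adult mCD by the most of the list, -9.40 ± 0.29 (edgeR adjusted p = 2.0e-10), followed by *Hsd11b2*, the enzyme that inactivates corticosterone in aldosterone target cells, at -6.07 ± 0.20 (edgeR adjusted p = 3.5e-11). *Kcnj1* is also a gene of the thick ascending limb, whose markers were high in adult mCD, and the part of those cells in its level was not tested in either comparison. *Tmem45b*, which encodes a membrane protein, was at 41.6 against 249 CPM and a log2 fold change of -2.58 ± 0.12.

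**Figure D5:**
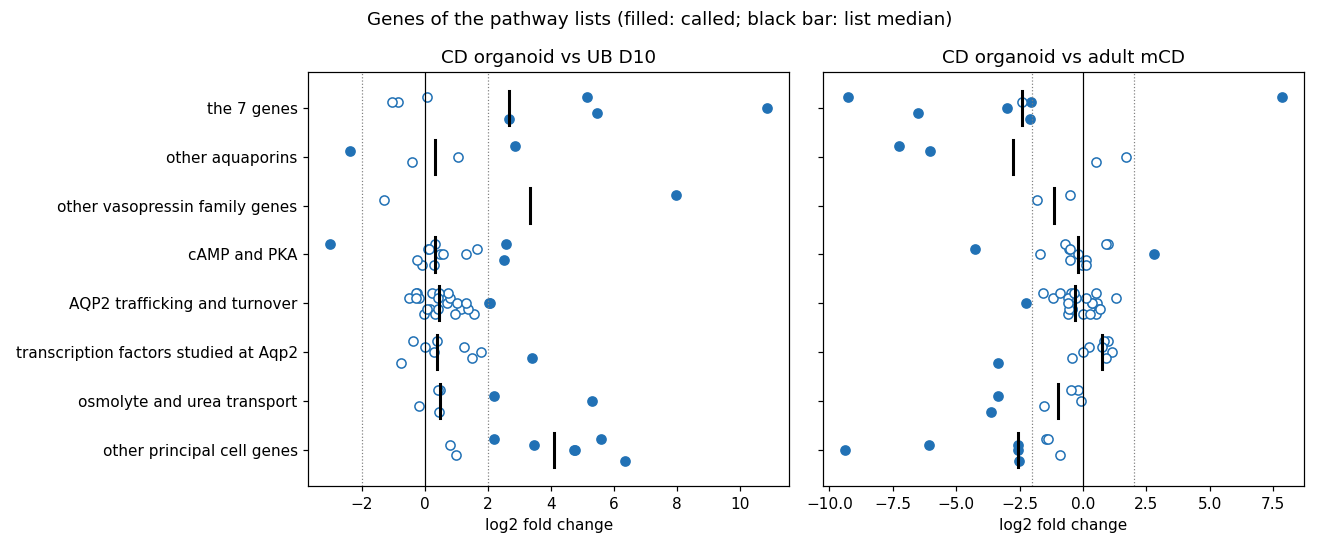
Log2 fold change (x axis) of each tested gene of the 7 and of the 7 pathway lists (y axis) in CD organoids against UB D10 (left) and against adult mCD (right), filled where called, with a black bar at the list median. The water channels and the other principal cell genes spread widely. The medians of the cAMP, trafficking and transcription factor lists lie between -0.31 and 0.74, but single genes lie far from them. In the cAMP list they reach -4.26 and 2.79 against adult mCD.

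The genes whose pattern was most like that of a member were looked for among 10538 genes with a mean of at least 10 CPM, by Pearson's r of log2(CPM + 1) over the 10 libraries, which share groups, and are given as a description. For *Aqp2* they were *Rab21*, *Atp6v1h*, *Acadsb*, *Agtpbp1* and *Sidt2*, with r from 0.995 to 0.997. For *Aqp3* they were *Ogdh*, *Cox5b*, *Ptgfr*, *Sdha* and *Irgm1*, with r of 0.995 to 0.998, and *Ptgfr*, a prostaglandin receptor, had means of 109 CPM in adult mCD and 3.72 CPM in CD organoids. For *Aqp4* they were *Nipal1*, *Icam1*, *Klhl5*, *Tmem45b* and *Pxn*, with r of 0.993 to 0.996. *Nipal1*, at 45.3 CPM in CD organoids and 221 CPM in adult mCD, and *Tmem45b* shared with *Aqp4* a UB maximum at UB D10. Pearson's r takes no account of the size of a change. *Rab21*, the closest to *Aqp2*, had means of 57.3 CPM in UB D5 and 127 CPM in adult mCD, where *Aqp2* had 0.0417 and 4458 CPM.

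Among the 7 genes themselves, *Aqp2* had r of 0.952 with *Aqp4*, 0.929 with *Aqp3* and 0.368 with *Aqp5*, and *Aqp3* had 0.0265 with *Aqp5*. For *Avpr2* the 5 closest genes were *Gatad1*, *Zfp830*, *Ccdc181*, *Nox4* and *Elp5*, with r of 0.879 to 0.923. As *Avpr2* never exceeded 4 counts, that order carries no information on the receptor.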

How the data were processed

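The authors trimmed the reads, aligned them with STAR to mm10 and quantified GENCODE M24 genes in Partek Flow. The labels' processing notes also name FastQC 0.11.8, cutadapt 2.5, Trimmomatic 0.36 and edgeR 3.28.1. The deposited table holds raw counts per gene, RPKM computed by the authors from TMM-scaled libraries, and a TMM-scaled count signal deposited by the authors, of equal sum in every library. The RPKM length matched the summed exon lengths of all transcripts plus 1 base an exon in 99.9% of the 38497 genes with the same exon number in GENCODE M21, which supplied the merged exon lengths.

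From the counts, genes with a sum of at least 10 over 10 libraries (24410) were tested with edgeR 4.0.16 (R 4.3.3), TMM factors and the quasi-likelihood F test with a prior count of 1. All 5 groups shared a single fit without covariates. P-values were Benjamini-Hochberg adjusted over all genes tested, and calls needed both an adjusted p no larger than 0.01 and a change over 4-fold. Standard errors were derived from the fold change and the F statistic. The scripts were tested on simulated counts. The ratio used an exact permutation test. DESeq2 1.42.0, limma 3.58.1, other scalings, filters and left-out libraries were alternatives.

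The 7 genes and the gene lists were chosen with earlier results of these data known. Named in the text were all 7 genes, up to 3 called genes of largest change per pathway list and comparison against UB D10 or adult mCD, and the 5 genes most like *Aqp2*, *Aqp3*, *Aqp4* and *Avpr2*. Other genes given with values (*Adcy6*, *Gnas*, *Elf3*, *Elf5*, *Oxtr*, *Avp*, *Avpr1b*, *Aqp8*, *Aqp12*, *Arhgap4*, *Scnn1b*, *Scnn1g*, the intercalated cell markers *Foxi1*, *Atp6v1b1*, *Atp6v0d2*, *Slc4a1* and *Slc26a4*, and the tubule markers *Umod*, *Slc12a1*, *Slc34a1*, *Slc22a6* and *Lrp2*) were added after their values were seen. Group names follow the labels. The result of 1 marker list is not reported here.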

Additional observations from a re-analysis of the deposited data

How the results depend on the processing

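Of 374 fold changes of the 7 genes recomputed under other settings, 352 kept their direction and side of the threshold, and of 380 with 1 library left out, 367 did. Against adult mCD, *Aqp4* and *Aqp11* fell short of 4-fold with library totals (-1.70 and -1.67, edgeR adjusted p = 3.2e-07 and 1.2e-06) and with quantile normalization in limma-voom (-1.78 for both, adjusted p = 7.4e-07 and 5.1e-05). Their ranges with 1 library left out were -2.21 to -1.96 and -2.18 to -1.92, and over all their alternatives the highest adjusted p was 1.6e-05 and 5.1e-05. DESeq2 gave no adjusted p for *Avpr2* in the 2 comparisons with adult mCD. With library totals the median of all genes in that comparison moved from 0 to 0.34 and the share of calls higher in CD organoids from 31.4% to 44.4%, and with quantile normalization to 0.22 and 42.1%. For adult mCD against UB D20 the share higher in adult mCD went from 64.1% to 50.5% with library totals and 54.1% with quantile normalization, and the latter moved the share higher at UB D10 over UB D5 from 68.6% to 55.4% and at UB D20 over UB D10 from 49.0% to 60.8%.

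The sign of *Aqp1* in CD organoids against UB D10 turned with library totals (-0.021) and quantile normalization (-0.040), and ranged from -0.71 to 0.63 with 1 library left out. That of *Aqp5* in adult mCD against UB D20 turned with library totals (-0.37) and quantile normalization (-0.48), and ranged from -0.21 to 0.38. *Aqp11* from UB D10 to UB D20 ranged from -0.0077 to 0.26. The rise of *Aqp2* from UB D10 to UB D20 missed the threshold in limma-voom (3.26, adjusted p = 0.12) and when only those 2 groups were fitted (3.75, edgeR adjusted p = 0.038), and over its 20 alternatives the adjusted p ran from 6.5e-34, without the filter on low counts, to 0.12. The log2 apical to basolateral difference between CD organoids and adult mCD, 2.77, was 3.49 with *Aqp3* alone, 2.88 with *Aqp5* added, 0.90 without length and 2.01 with merged exons, and 2.70 to 2.83 with 1 library left out. That to UB D20, 3.84, ranged from 2.78 to 4.91.

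Genes called from UB D5 to UB D10 and from UB D10 to UB D20, 832 and 827, were 518 and 548 with a prior count of 5, and 539 and 505 with only 2 groups in the fit. With a limit of 0.05 on the adjusted p and no fold limit the counts were 7969 and 7083, then 11530 for CD organoids against UB D10 (2604 as reported), 10311 against UB D20 (2310), 12168 against adult mCD (3499) and 13762 for adult mCD against UB D20 (4688). Under that rule *Aqp11* in CD organoids against UB D10 (-0.84) and *Avpr2* against adult mCD (-2.40) passed. Leaving out 1 library gave 640 to 1049, 586 to 1049, 2259 to 2583, 1994 to 2402, 2984 to 3652 and 4145 to 4830, in the order above.

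Correlations of the replicate deviations between groups ran from -0.19 to 0.098. Weak correlations cannot settle whether libraries of the same replicate number were paired. With the number as a replicate block, 826, 820, 2583, 2284, 3414 and 4600 genes were called, in the same order, and no call among the 7 genes changed.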
